A study of Mus musculus with 16 samples.

Results

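Genes named Zfp with a number are the mouse zinc finger proteins, most of which read DNA through tandem C2H2 fingers, small folds held by a zinc ion. The members described here are all rows whose symbol is Zfp followed only by digits, with at least 20 reads summed over the 4 Input libraries and 1 3′-UTR region kept for each symbol, the one with the most reads. Zfp36, a CCCH finger protein that destabilises mRNAs, was left out by this rule. It gave 116 of 267 Zfp symbols in the table, set beside 8200 of all 14925 symbols that met the same Input minimum. Per library, between 0.287% and 0.514% of reads over 3′-UTRs fell on the 116 genes.

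The study sequenced RNA immunoprecipitated with an antibody to the RNA-binding protein CPEB4 (RIP), and total RNA of the same lysates (Input), from bone marrow-derived macrophages (BMDMs). Marrow of adult C57BL/6J 129 mice was differentiated for 7 days in L-cell conditioned medium, and cells were left untreated or given lipopolysaccharide (LPS) at 10 ng/ml for 9 h before formaldehyde crosslinking. All WT samples carry the number 76 and all KO samples 73, and the labels do not say what the number stands for. KO cells came from Cpeb4-/- mice that lack the gene in all tissues, so the KO RIP shows what the antibody and beads recover without CPEB4. The 16 samples were 8 libraries, each on lanes 7 and 8 and merged into 1 column, which left 1 library per genotype, treatment and assay. No difference below has a replicate check. The intervals are 95% counting intervals and cover counting error only, and genotype cannot be told apart from what these numbers mark. Because the RNA is bulk, fewer cells of a type and less RNA per cell cannot be told apart either.

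The libraries held 467696 to 2492300 reads in 3′-UTRs, the fewest in the KO RIP of untreated cells. Reads over Cpeb4 itself numbered 121 and 258 in the WT Inputs, untreated and with LPS, against 69 and 79 in the KO Inputs, and 1392 and 1920 in the WT RIPs against 120 and 320 in the KO RIPs. The deleted part of the gene is not given in the sources used here, so 3′-UTR reads left in KO do not test the label. The 6 macrophage markers summed to 2066 to 3977 reads per library, mostly from Lyz2 (1587 to 2431), with Cd68 at 11 to 94 and Mrc1 at 3 to 143. The markers of granulocytes, dendritic cells, T cells, B cells, red cells and stroma summed to at most 12 reads per list and library.

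Many C2H2 proteins carry a KRAB domain, which binds TRIM28 and through it the H3K9 methyltransferase SETDB1, and these silence retroelements and imprinted genes. Others act on RNA, on ribosomes or in immune signalling. CPEB4 binds cytoplasmic polyadenylation elements (CPEs) in 3′-UTRs, where their number and spacing from the polyadenylation hexamer set whether translation is repressed or activated by poly(A) tail length. In macrophages CPEB4 acts during the LPS response.

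The canonical CPE was searched as TTTTAT and TTTTAAT on the transcribed strand, and 76.7% of the 116 Zfp regions held at least 1, against 63.9% of all 8200 regions. The windows below show, in capitals, the canonical CPE nearest the 3′ end of the region for 4 genes that fell with LPS or had the most Input reads and for 6 at the extremes of the WT over KO RIP ratio. They are 30 bases each, 5′ to 3′, read from the GRCm38.p6 (mm10) genome.
Zfp652: tagcattgtataTTTTATtcttattgagac
Zfp704: tacatgcctgcaTTTTATaagcaagcgtca
Zfp710: gccctactgtgtTTTTATgttcctgtttaa
Zfp395: atatgaaatataTTTTATaaggaataaaat
Zfp422: cattcttcaggTTTTAATgtttgttttgta
Zfp706: tctttaaaatatTTTTATatttgcaacgct
Zfp275: catctagtagaTTTTAATaaatatatgtta
Zfp367: ttgaataaaattttaTTTTAATttaaagca
Zfp120: gaaacttgaagTTTTAATagttaaatgaag
Zfp512: cctctgtataaaTTTTATagtcttcctgac
These windows lie in annotated 3′-UTRs, at chr11:95772208-95772237 on the + strand for Zfp652, chr3:9433552-9433581 on the - strand for Zfp704, chr7:80092668-80092697 on the + strand for Zfp710 and chr14:65398887-65398916 on the + strand for Zfp395. The windows of Zfp422, Zfp706 and Zfp275 are chr6:116624168-116624197 on the - strand, chr15:36997824-36997853 on the - strand and chrX:73359044-73359073 on the + strand. Those of Zfp367, Zfp120 and Zfp512 are chr13:64133022-64133051 on the - strand, chr2:150115480-150115509 on the - strand and chr5:31480381-31480410 on the + strand. The whole regions held 15 such elements in Zfp652, 10 in Zfp275, 8 in Zfp367, 7 each in Zfp704 and Zfp422, 4 in Zfp706, 3 each in Zfp395 and Zfp120, 2 in Zfp710 and 1 in Zfp512. Of the others at the low extreme of that ratio, Zfp180 and Zfp263 held none and Zfp715 held 6. A match is a run of letters and was not tested for binding.

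The Zfp 3′-UTRs were longer than those of the table as a whole. Their median length was 1829.5 bases against 1272.5 for all genes, and their median G and C content was 44.5% against 45.8%. The median Zfp gene had 2 canonical CPEs, against 1 for all genes, and 3 AUUUA pentamers, the core of the AU-rich elements bound by Zfp36, against 2. On chromosome 7 there were 27 of the 116, or 23.3%, where 7.35% of all genes lay, and 57 of the 116 had another member within 1 Mb. Proteins translated from the annotation matched the C2H2 signature in 112 genes, of which 26 also matched KRAB and 4 SCAN, a dimerisation domain. The signature was not found in Zfp330, Zfp503, Zfp703 and Zfp839.

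Levels were low. Scaled to region length and to the 3′-UTR reads of the library (RPKM), the median Zfp gene stood at 6.68 to 9.59 in the 4 Inputs, against 22.6 to 25.1 for all genes, and the median number of reads per Zfp gene and library was 9 to 27.5. On this scale Zfp710 was at 176 in the WT Input of untreated cells and Zfp91 at 121.9 in the WT RIP with LPS, the highest Zfp level in each of those libraries. Zfp865 headed the other 6 libraries on a region of only 13 bases and 23 Input reads. In reads, Zfp652, Zfp710, Zfp91, Zfp740, Zfp106 and Zfp516 had the most Input reads, and they make the firmest measurements here.

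With LPS the Zfp mRNAs stood lower than the median gene in both genotypes. In WT Input the median log2 ratio of LPS over untreated was -0.26 over the 80 Zfp genes with at least 20 reads in the pair, against -0.06 over 6873 genes, and in KO Input it was -0.53 over 88 against -0.16 over 6996. In WT 9 Zfp genes were past 2-fold lower, where 15.2% of all genes were, and 6 past 2-fold higher, where 15% were. The Zfp shares were 11.2% and 7.50%, so both tails held a smaller share of Zfp genes than of all genes. In KO 18, or 20.5%, were past 2-fold lower and 7, or 7.95%, higher, against 19.6% and 13.7% of all genes. Scaled to library totals these 2 KO counts were 13 lower and 9 higher, and the share of all genes is not given on that scale. Of 76 genes measured in both genotypes, 45 were below 0 in both (59.2%, against 45.0% of all genes), 12 above 0 in both (15.8% against 35.8%) and 19 on opposite sides (25% against 19.2%).

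Zfp704, a paralogue of Zfp395, fell furthest. Its normalised read count (CPM, scaled to the 3′-UTR reads of the library) was 102.3 in untreated WT Input and 8.96 with LPS, and 122.9 and 7.99 in KO. Both LPS Inputs lay far below both untreated ones. The log2 ratio was -3.45 in WT (interval -4.17 to -2.72) and -3.84 in KO (-4.65 to -3.02). The RIPs moved alike, from 115 to 10.8 in WT and from 139.0 to 9.18 in KO. Zfp395, which binds DNA and has been tied to interferon-driven transcription, fell from 174 to 40.6 in WT Input and from 189 to 53.9 in KO Input. Its log2 ratios were -2.09 (-2.48 to -1.70) and -1.80 (-2.16 to -1.44). Zfp652, a transcriptional repressor that works with the corepressor CBFA2T3 and the second most read Zfp gene in Input, fell from 502 to 167 in WT and from 560 to 181 in KO. The ratios were -1.59 (-1.79 to -1.38) and -1.62 (-1.82 to -1.42). Zfp282 and Zfp467, known as EZI, followed at -1.36 and -1.25 in WT and -1.10 and -1.18 in KO. Zfp629 was also past 2-fold lower in both genotypes, on 9 to 38 Input reads per library. These 6 of 76, or 7.89%, compare with 11.6% of all genes past 2-fold lower in both.

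**Figure D1:**
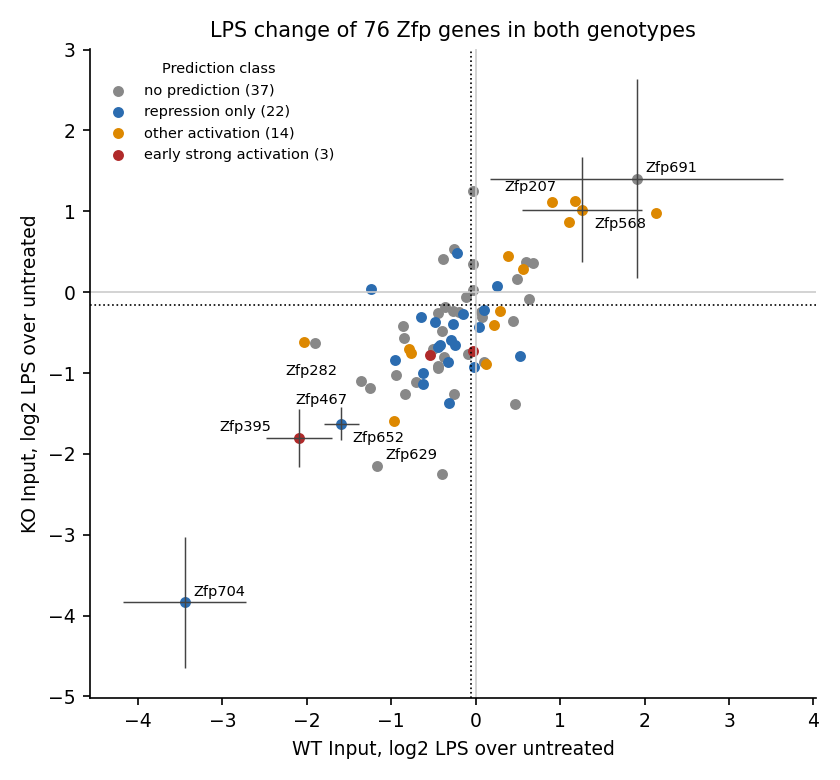
Each point is 1 of 76 Zfp genes, with the log2 ratio of LPS over untreated Input in WT on the x axis and in KO on the y axis, coloured by the deposited Prediction class. Dotted lines are the medians of all genes, bars on 5 genes are 95% counting intervals, and Zfp704, Zfp395 and Zfp652 lie at the lower left.

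Rises were fewer and rested on fewer reads. Zfp568, the KRAB protein that silences a placental Igf2 transcript, went from 19.4 to 48.5 CPM in WT Input and from 19.6 to 40.6 in KO, log2 ratios of 1.26 (0.55 to 1.97) and 1.02 (0.37 to 1.67). Its RIP levels rose in both genotypes, from 31.2 to 66.6 in WT and from 23.5 to 67.7 in KO. Zfp207, the spindle protein BuGZ, had ratios of 1.18 and 1.13 on 7 to 46 Input reads, and Zfp691 was at 1.91 in WT on 2 and 22 reads and also past 2-fold in KO. These 3 of 76, or 3.95%, were the only members past 2-fold higher in both genotypes, where 10.5% of all genes were. Zfp263, Zfp687, Zfp281 and Zfp609 completed the 5 highest by the mean of both genotypes among the 41 genes with 50 reads in each pair. Their ratios ran from 0.38 to 0.68 in WT and from 0.29 to 0.44 in KO, and only the interval of Zfp263 in WT lay above 0 (0.09 to 1.27).

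Few Zfp genes differed between the genotypes in Input. The WT over KO median was -0.14 in untreated cells over 77 Zfp genes and 0.12 with LPS over 88, against -0.02 and 0.04 for all genes. With at least 50 reads in the pair the LPS median was 0.03 over 45 genes, against 0.04. Without LPS 1 member was past 2-fold, where 1.27% of all genes were higher and 2.74% lower. This was Zfp12, lower in WT on 6 and 19 reads, and its interval included 0 (-2.24 to 0.24). With LPS 5 were higher, or 5.68%, and 4 lower, or 4.55%, against 2% and 1.60% of all genes. With library totals 3 were higher and 4 lower, and the share of all genes is not given on that scale. The higher ones were Zfp593, Zfp111, Zfp324, Zfp426 and Zfp169, and the lower ones Zfp397, Zfp219, Zfp513 and Zfp777. The ratio furthest from 0 was that of Zfp169 (1.43), on 16 and 4 reads. With LPS the intervals of 3 higher and 3 lower genes excluded 0. With at least 50 reads in the pair, 0 of 45 were past 2-fold.

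The RIP over Input ratio asks which mRNAs the antibody recovered beyond their abundance. In WT the Zfp median was 0.16 in untreated cells over 85 genes and 0.24 with LPS over 101, against -0.01 and -0.07 for all genes. Past 2-fold higher were 20 genes without LPS, or 23.5%, and 21 with LPS, or 20.8%, where 23.4% and 21.1% of all genes were. Those shares are at the background and are no result about Zfp genes. Past 2-fold lower were 8 and 20, or 9.41% and 19.8%, against 21.8% and 27.5% of all genes. In KO, with no CPEB4 to bind, the Zfp medians were 0.32 over 74 genes and 0.30 over 82, against -0.05 and -0.06. Past 2-fold higher in KO were 14 and 22, or 18.9% and 26.8%, against 14.5% and 14% of all genes, and past 2-fold lower were 2 and 4, against 12.5% and 12.3%. These KO counts turn with the scaling. With library totals 5 and 11 were higher and 18 and 18 lower, and in WT with LPS 35 were higher and 12 lower, because that scaling moved the median of all genes by -0.77 and -0.68 in KO and by 0.51 in WT with LPS. That scaling shifts every gene alike, so the distance of the Zfp median from that of all genes cannot change. The share of all genes past 2-fold is not given on that scale, so the counts with library totals are no result about Zfp genes.

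Zfp367 had the highest mean WT ratio of the 40 genes with 50 reads in each pair. It stood at 185 CPM in the untreated WT RIP and 70.2 with LPS, against 23.7 and 12.1 in the WT Inputs. The KO RIPs held 102.6 and 37.9, against 29.4 and 9.32 in the KO Inputs, so both RIPs lay above both Inputs in each genotype. The log2 RIP over Input ratios were 2.91 (2.30 to 3.52) and 2.48 (1.87 to 3.10) in WT, and 1.80 (1.19 to 2.40) and 1.97 (1.09 to 2.84) in KO. Zfp148 and Zfp281, paralogues that bind GC-rich promoters and have been linked to cytokine genes, had ratios of 1.87 and 1.64 and of 1.83 and 1.90 in WT, and of 0.84 and 1.24 and of 0.94 and 1.11 in KO. The region of Zfp148 held 26 canonical CPEs, the most of any member. At the other end Zfp346, a binder of double-stranded RNA, was at -1.64 and -2.50 in WT and -0.90 and -0.89 in KO. Zfp787 was at -1.27 and -2.12 in WT and -1.16 and -1.06 in KO. Zfp710 was at -0.95 and -1.24 in WT on 864 reads with LPS, and at -0.38 and -0.61 in KO.

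This ratio followed base content. Across 101 Zfp genes in WT with LPS, Pearson's r between the ratio and the G and C content of the region was -0.80 and Spearman's rho -0.81, and across 82 in KO they were -0.54 and -0.58. Over all genes rho was -0.76 and -0.65. The genes share the same libraries and are not independent replicates, so these are descriptions with no test. Among the 39 Zfp genes with the lowest G and C content, up to 40.3%, 36 of 37 measured with LPS in WT were above 0, with a median of 1.04, and among the 39 with the highest, over 48.8%, 25 of 30 were below 0, with a median of -1.06. For all genes in those ranges the medians were 1.21 and -1.29. In KO with LPS these low and high Zfp groups had medians of 0.95 and -0.25, against 0.81 and -0.61. The part of base content in any recovery below was not tested.

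**Figure D2:**
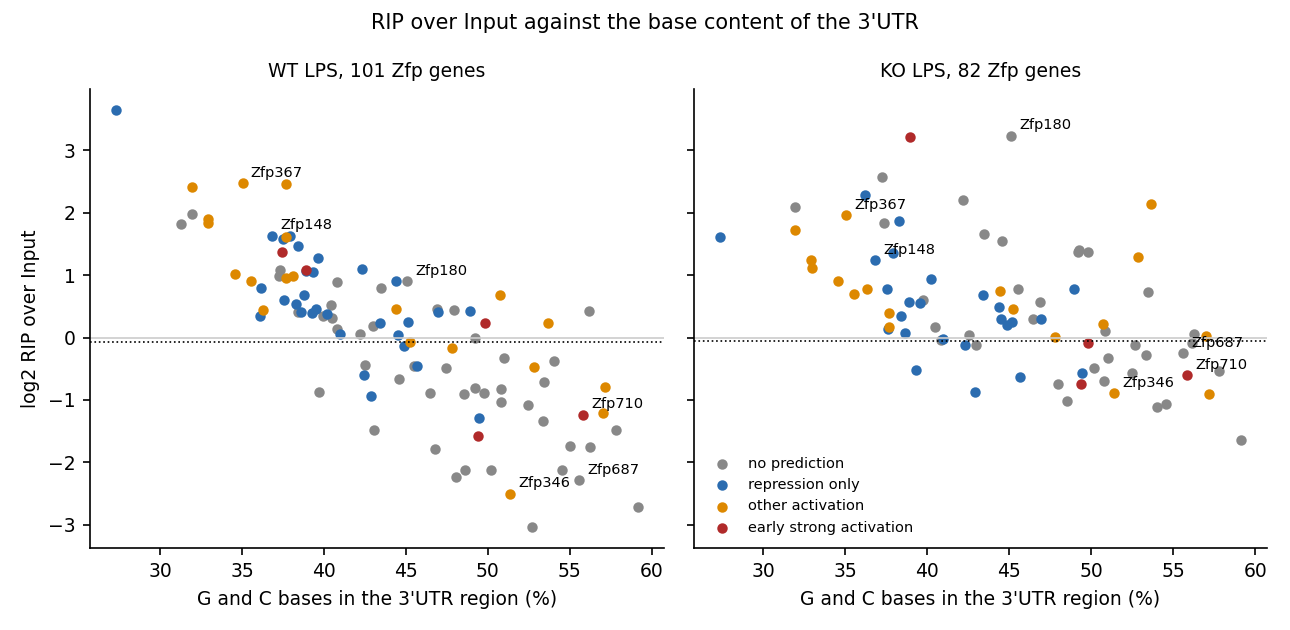
The log2 ratio of RIP over Input with LPS is plotted against the G and C content of the 3′-UTR region for 101 Zfp genes in WT (left) and 82 in KO (right), coloured by Prediction class, with the median of all genes as a dotted line. Genes with 40% or less G and C lie mostly above 0 in both panels, and the genes over 48.8% have a median of -1.06 in WT and -0.25 in KO.

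The comparison of WT with KO RIP asks what depended on CPEB4, and over the members with at least 20 reads in the pair the Zfp median lay on the KO side. It uses the same RIP libraries as the ratios above, so the 2 measures are not independent. The median log2 ratio was -0.31 over 77 genes in untreated cells and -0.15 over 91 with LPS, against -0.03 over 6301 and 0.03 over 6710 for all genes. Past 2-fold higher in WT were 2 and 3 members, or 2.60% and 3.30%, where 9.46% and 9.70% of all genes were. Past 2-fold lower were 10 and 17, or 13.0% and 18.7%, against 11% and 14.1%. Of 75 genes measured under both treatments 38 were below 0 in both (50.7%, against 37.5% of all genes) and 19 above 0 in both (25.3% against 40.1%). With at least 50 reads in the pair the Zfp median was -0.19 over 45 genes without LPS, against 0.07, but with LPS it was 0.16 over 47 against 0.13 for all genes, which turns the direction. These signs hold for reads scaled to the 3′-UTR total. A smaller share of the KO RIP reads lay in 3′-UTRs (27.3% and 31.8%) than of the WT RIP reads (48.9% and 70.1%), and scaling to whole libraries raised every ratio by 0.84 without LPS and 1.14 with it. On that scale 21 and 45 Zfp genes were past 2-fold higher and none lower. The medians of all genes were 0.82 and 1.17 there. The share of all genes past 2-fold is not given on that scale, so these counts are no result about Zfp genes. The order of the genes is the same on both scales. The read added to each count weighs more in the smaller KO RIP libraries, which tends to lower this ratio in genes with few reads. With 5 reads added the Zfp medians were -0.55 without LPS and -0.35 with it, against -0.24 and -0.12 for all genes. The part of the added read in the Zfp medians was not tested.

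Zfp422 and Zfp706 stood highest by the mean of both treatments among the 39 genes with 50 reads in each RIP pair. Zfp706, a small protein that embryonic stem cells need to leave self-renewal, was at 140 CPM in the untreated WT RIP and 109 with LPS, against 53.5 and 56.2 in the KO RIPs. Its Inputs were 82.9 and 58.5 in WT and 95.8 and 58.6 in KO. Only the 2 WT RIPs were above their Inputs. The WT over KO ratio was 1.34 (0.75 to 1.92) and 0.93 (0.50 to 1.37), and after subtraction of the Input ratio 1.54 (0.83 to 2.25) and 0.94 (0.35 to 1.53). Zfp422 was at 66.6 and 51.8 in the WT RIPs and at 32.1 and 13.8 in the KO RIPs, while its 4 Inputs spanned 20.6 to 24.8. Its WT over KO ratios were 0.97 (0.22 to 1.73) and 1.81 (0.98 to 2.63), on 15 and 12 reads in the KO RIPs. After subtraction of the Input ratio they were 1.05 (-0.04 to 2.13) and 1.56 (0.51 to 2.60). Its RIP over Input ratios in KO were 0.46 and -0.51, with intervals that included 0.

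Zfp367, Zfp275 and Zfp266 were above 0 in both treatments, each with both intervals clear of 0. Their WT over KO ratios were 0.83 and 0.86, 0.76 and 0.51, and 0.59 and 0.62. Corrected for Input, Zfp275 was higher, at 1.13 (0.36 to 1.90) and 1.21 (0.55 to 1.88), with RIP levels of 97.2 and 73.0 in WT and 55.6 and 50.5 in KO. On the corrected scale Zfp367 was at 1.11 (0.26 to 1.97) without LPS and 0.51 (-0.56 to 1.59) with it. Zfp266 was at 0.65 (-0.19 to 1.49) and 0.79 (-0.08 to 1.66), so both of its corrected intervals included 0. Zfp26, a KRAB protein with 13 canonical CPEs, was at 1.64 (0.79 to 2.50) without LPS and 0.12 (-0.57 to 0.81) with it on the corrected scale. Zfp326, a splicing and elongation factor of the DBIRD complex, had the highest untreated ratio, 1.63 (-0.08 to 3.33), on 32 against 2 reads.

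The lowest means among the same 39 genes were of Zfp180, Zfp120, Zfp263, Zfp512 and Zfp715. Zfp180 stood at 28.2 and 23.3 CPM in the WT RIPs and at 44.9 and 92.9 in the KO RIPs, with all 4 Inputs between 9.05 and 12.1. Every RIP was above every Input, most of all the KO RIP with LPS, with 81 reads. Its ratio was -0.71 (-1.44 to 0.02) without LPS and -1.99 (-2.47 to -1.51) with it. After Input correction these were -1.10 (-2.45 to 0.24) and -2.33 (-3.38 to -1.28). Zfp120, a KRAB protein, was at 27.0 and 13.2 in the WT RIPs and 66.3 and 34.4 in the KO RIPs, against 5.32 to 12.1 in the Inputs. Its ratios were -1.31 (-1.96 to -0.66) and -1.38 (-2.08 to -0.68). By these levels both genes were recovered above Input where CPEB4 was absent. After Input correction the Zfp120 ratios were -0.32 (-1.81 to 1.17) without LPS and -1.58 (-2.99 to -0.16) with it. Its untreated Inputs held 5 reads in WT and 16 in KO. Zfp263, a SCAN protein, was at 24.0 and 27.7 in WT and 38.5 and 76.9 in KO, with ratios of -0.72 (-1.51 to 0.06) and -1.47 (-1.96 to -0.99). Of all members tested 6, Zfp120, Zfp276, Zfp329, Zfp553, Zfp629 and Zfp768, were past 2-fold lower under both treatments, and none was past 2-fold higher under both. The 6 are 8.00% of 75, near the 6.19% of all genes that were lower under both, and 4.14% of all genes were higher under both. The region of Zfp276 overlaps 142 bases of Fanca, and reads of the 2 genes cannot be told apart there unless strand was counted, which the sources used here do not state.

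**Figure D3:**
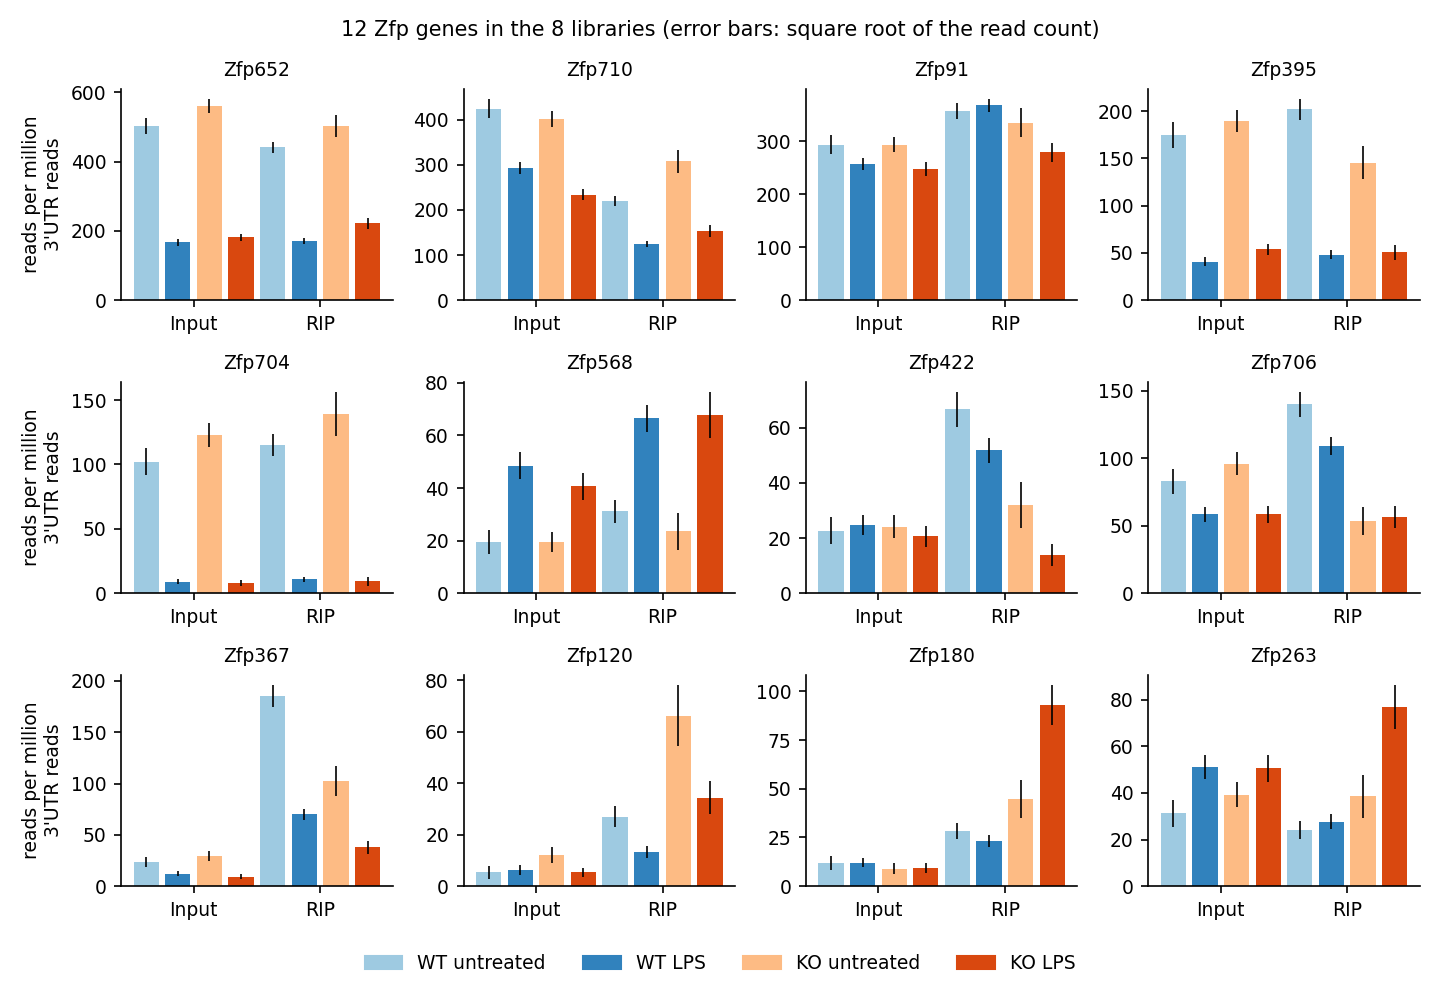
Bars give the CPM (reads scaled to the 3′-UTR reads of the library) of 12 Zfp genes in the 8 libraries, Input on the left and RIP on the right of each panel, with the square root of the read count as error bar. Zfp652, Zfp395 and Zfp704 are lower with LPS in both assays, and Zfp422 and Zfp706 are highest in the WT RIPs. Zfp120 and Zfp180 are highest in the KO RIPs, and Zfp263 in the KO RIP with LPS only.

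The input-corrected ratio subtracts the WT over KO difference of the Inputs. Its Zfp median was -0.12 over 63 genes without LPS and -0.13 over 79 with it, against 0.01 and -0.05 for all genes. Without LPS 7 were past 2-fold higher and 8 lower, against 14.5% and 14.2% of all genes. With LPS 6 were higher, or 7.59%, and 21 lower, or 26.6%, against 11.3% and 17.8%. With library totals the counts were 20 higher and 0 lower without LPS and 41 and 3 with it. The medians of all genes were 0.84 and 1.15 on that scale, and the share of all genes past 2-fold is not given. With at least 50 reads asked of each pair the medians turned, to 0.08 over 33 genes without LPS, against 0.08 for all genes, and 0.12 over 34 with it, against 0.03, and with LPS 5 of 34 were past 2-fold, 2 higher and 3 lower, so most of the 21 rested on few reads. Zfp710, with 510 and 442 reads in its RIP pairs, was at -0.57 (-0.91 to -0.24) and -0.63 (-0.98 to -0.28).

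The WT over KO RIP ratio, without the Input correction, was higher in genes with more canonical CPEs. Across 77 Zfp genes without LPS Pearson's r was 0.51 and rho 0.58, and across 91 with LPS they were 0.40 and 0.54. Over all genes rho was 0.32 and 0.41. The CPE is AT-rich, and the G and C content of the region had rho of -0.38 and -0.48 with the same ratios over Zfp genes. The parts of base content, region length and read number in this relation were not tested. Of 12 Zfp genes with no canonical CPE measured with LPS, all were below 0, with a median of -1.05 and 6 past 2-fold lower, where 30.9% of all genes with none were. The 32 with 1 or 2 had a median of -0.48 and the 47 with 3 or more of 0.25. For all genes the 3 medians were -0.58, 0.00 and 0.35. In the RIP over Input ratio of KO with LPS the same Zfp groups stood at -0.09, 0.16 and 0.56.

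**Figure D4:**
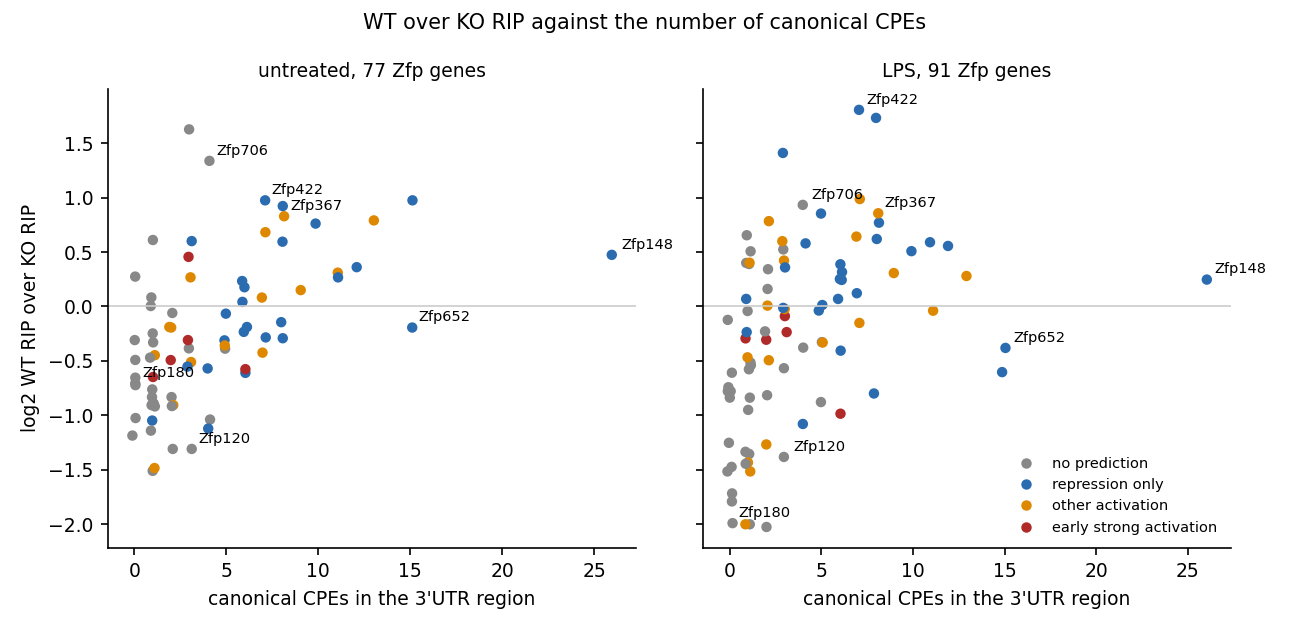
The log2 ratio of WT over KO RIP is plotted against the number of canonical CPEs in the 3′-UTR region, for 77 Zfp genes in untreated cells (left) and 91 with LPS (right), coloured by Prediction class, with a small sideways shift to part the points. Genes with no element lie below 0 with LPS, and those with 3 or more spread to both sides of 0 around a median of 0.25.

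The deposited Prediction column states what the arrangement of CPEs, Pumilio sites and hexamers is predicted to do to translation, and is computed from sequence alone. Of the 116 Zfp genes 60 had no prediction, 31 repression only, 20 activation other than early strong and 5 early strong activation. Any prediction was thus given to 48.3% of Zfp genes, against 36.7% of all genes, and early strong activation to 4.31% against 7.91%. Longer regions more often carry one. Split into 4 groups of 29 by length, 27.6% of the shortest Zfp genes had a prediction, against 19.6% of all genes of like length, in the next group 24.1% against 35.9%, then 62.1% against 51.4%, and in the longest 79.3% against 65.6%.

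By class, the WT over KO RIP ratio of Zfp genes was lowest where no prediction was given. Its median there was -0.72 without LPS over 32 genes and -0.76 with LPS over 38, against -0.25 and -0.24 for all genes of that class. Repression only gave -0.07 over 25 and 0.25 over 28, against 0.19 and 0.33. Other activation gave -0.19 over 15 and -0.01 over 20, against 0.22 and 0.27. The 5 early strong genes, Zfp395, Zfp598, Zfp710, Zfp715 and Zfp318, gave -0.49 and -0.29, against 0.30 and 0.37. In each class and treatment the Zfp median lay below that of all genes at the minimum of 20 reads in the pair. Over all classes together, with LPS and at least 50 reads, it was 0.16 against 0.13. With LPS none of the 38 without prediction was past 2-fold higher in WT, and 12, or 31.6%, were past 2-fold lower, against 7.11% and 21.3% of all genes of that class.

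**Figure D5:**
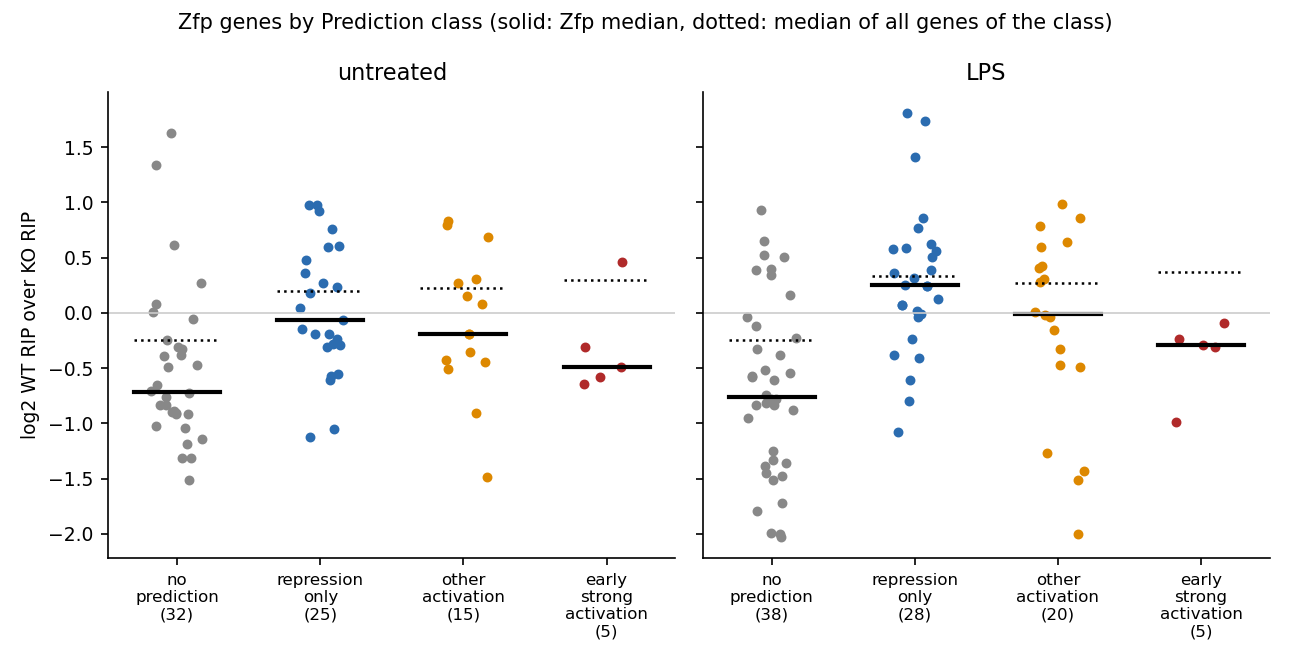
Each point is a Zfp gene, with the log2 ratio of WT over KO RIP on the y axis, by Prediction class, in untreated cells (left) and with LPS (right), and the number of genes in brackets. Genes shown have at least 20 reads in the pair. The solid Zfp median lies below the dotted median of all genes in all 4 classes of both panels.

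In RIP over Input the class with no prediction was again lowest of these 3, but other activation stood above repression only. In WT without LPS the Zfp medians were -0.30 with no prediction, 0.46 with repression only and 1.27 over 15 genes with other activation, and with LPS -0.58, 0.45 and 0.79. For all genes with LPS they were -0.63, 0.66 and 0.45. In KO with LPS the Zfp medians were 0.06, 0.34 and 0.71, so a spread between classes was also present without CPEB4. The LPS change of Input gave -0.26, -0.32 and 0.33 in WT and -0.45, -0.65 and -0.32 in KO. Of the 6 members past 2-fold higher in WT Input 4 were in the other activation class, among them Zfp568, Zfp207 and Zfp292. They are 28.6% of the 14 measured members of that class, where 17.1% of all genes of the class were higher.

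The authors' peak calls, made with MACS on each RIP against its Input, marked few Zfp 3′-UTRs. A peak lay over 3 of 116 in the untreated WT RIP and 21 in the WT RIP with LPS, or 2.59% and 18.1%, against 12% and 26.7% of all genes. In KO there were 0 and 1, against 1.71% and 2.02%. The KO RIPs had the fewest 3′-UTR reads, and Zfp genes had a median of 61.5 Input reads against 149 for all genes. The part of depth in these counts was not tested, in WT or in KO. The 3 were Zfp367, Zfp740 and Zfp422, with MACS scores of 536, 57.0 and 52.7, and these had a peak with LPS too. With LPS the highest scores were of Zfp91 (581), Zfp706 (419), Zfp131 (411) and Zfp367 (326). The 1 KO peak was that of Zfp180, with a score of 101.03, where the WT RIPs had none. Of the 21 genes 9 were predicted for repression only, 7 for other activation and 5 had no prediction.

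By known role, the 7 measured immune signalling members had a WT RIP over Input median of 0.94 over 6 genes with LPS and a WT over KO RIP median of 0.08. The medians of all genes were -0.07 and 0.03. Zfp281, Zfp148, Zfp318 and Zfp64 had 32.9% to 39.8% G and C, Zfp91 40.4%, Zfp395 49.8% and Zfp335 57.8%. The part of base content in these medians was not tested. Zfp91, a ubiquitin ligase that stabilises the NF-kappaB-inducing kinase, was the best measured. It stood at 294 and 257 CPM in the WT Inputs and 294 and 248 in the KO Inputs, so all 4 Inputs lay within that range. Its RIP levels were 357 and 368 in WT and 336 and 280.0 in KO, with a WT over KO ratio of 0.08 (-0.17 to 0.34) without LPS and 0.39 (0.19 to 0.59) with it. Zfp335, a cofactor needed for T cell maturation, has a region that lies wholly within that of Pcif1, so its reads belong to either gene. Zfp64 had no read in either KO RIP, against 6 and 9 in the WT RIPs, too few to compare.

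Among the 6 members that act on RNA and ribosomes, Zfp598, the ligase that marks collided ribosomes, was at -1.59 (-2.33 to -0.85) and Zfp593, a ribosome assembly factor, at -1.74 (-2.75 to -0.74) for RIP over Input in WT with LPS. With Zfp346 these made 3 past 2-fold lower, and Zfp326 at 1.82 (0.71 to 2.92) and Zfp830 at 1.46 (0.57 to 2.35) were past 2-fold higher. Of all genes 27.5% were past 2-fold lower and 21.1% higher in this ratio. Zfp106, an RNA-binding protein needed by motor neurons, was measured on 101 to 346 reads and had WT over KO ratios of -0.07 (-0.38 to 0.25) and 0.01 (-0.31 to 0.33). All 8 chromatin and transcription members were below 0 in WT over KO RIP with LPS, with a median of -0.35 against 0.03 for all genes. Past 2-fold lower was 1 of them, where 14.1% of all genes were. Corrected for Input, 4 were below 0 and 4 above. Without that correction Zfp384 (-0.04) and Zfp609 (-0.02) were nearest 0, and both lay above 0 with TMM (0.01 and 0.02) and the median of ratios (0.05 and 0.06). The 1 past 2-fold lower, Zfp687, was at -1.72 (-2.58 to -0.85) on 19 and 22 reads, and its region shares 7 bases with Pi4kb. Zfp217, a partner of the LSD1 and CoREST repressors, was at -0.39 (-0.69 to -0.08) and -0.57 (-0.83 to -0.30). Of 9 listed silencers of retroelements and imprints 4 were in the table and 2, Zfp568 and Zfp961, met the Input minimum.

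By protein signature, the 26 genes with a KRAB match had fewer Input reads. Their median was 42.5, against 72.5 for the 82 with a C2H2 match but no KRAB or SCAN match. Their 3′-UTRs had a median of 2511.5 bases and 41.6% G and C, against 1713.5 bases and 46.1%. The WT over KO RIP median was 0.00 over 15 KRAB genes without LPS and 0.01 over 17 with it, against -0.31 over 57 and -0.24 over 67 of the C2H2 genes. The KRAB medians of LPS over untreated Input were -0.39 over 15 in WT and -0.60 over 17 in KO, against -0.25 over 60 and -0.42 over 65. These groups differ in G and C content, and its part was not tested. Each signature is a short run of residues, so a gene without a match may still carry the domain, and the groups may be mixed.

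The partners through which KRAB proteins silence chromatin were read from the same table, 17 of 22 listed with the Input minimum. Their median LPS over untreated Input ratio was -0.82 over 15 in WT and -1.21 over 16 in KO, with 6 and 8 past 2-fold lower and 0 and 1 higher. The medians of all genes were -0.06 and -0.16, with 15.2% and 19.6% past 2-fold lower and 15% and 13.7% higher. Uhrf1, Dnmt1 and Chaf1a, which act at replication forks, were at -2.35, -1.62 and -1.31 in WT and -2.56, -1.49 and -1.67 in KO. Dnmt3a, a DNA methyltransferase and the most read of them, was at -1.64 (-1.82 to -1.46) and -1.94 (-2.14 to -1.75). Cbx5, the heterochromatin protein HP1 alpha, was at -0.82 (-1.12 to -0.51) and -1.79 (-2.08 to -1.49). Trim28 itself was at -1.27 (-1.99 to -0.54) and -0.85 (-1.62 to -0.08) on 21 to 34 Input reads, and Setdb1 at -0.20 (-0.88 to 0.48) and -0.77 (-1.36 to -0.17). Hdac1 was the 1 partner past 2-fold higher, at 1.09 (0.57 to 1.62) in KO and 0.48 (-0.08 to 1.05) in WT. Pphln1, periphilin of the HUSH silencing complex, was at 0.83 (0.43 to 1.23) in WT and 0.67 (0.32 to 1.01) in KO.

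Some members had more than 1 region or shared sequence with another symbol. Of the 116 genes 37 had more than 1 distinct region, 7 had a region lying outside the chosen one and 6 had regions of different Prediction class. For Zfp715, named among the lowest by WT over KO RIP, the ratio with LPS was -0.99 in the chosen region. In a shorter region within it the ratio was 0.26, on 23 and 6 reads. Regions of 3 genes, Zfp276, Zfp335 and Zfp687, overlap that of another symbol. In 28 genes some stretch of 50 bases also occurs in the region of another symbol, and in 4, Zfp335, Zfp764, Zfp839 and Zfp276, this held for over 5% of the stretches. How reads that match several places were counted is not given in the sources used here, so values of these 4 are uncertain.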

How the data were processed

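The deposited tables hold, for each of 31117 3′-UTR regions, raw read counts of 8 libraries, RPKM values, the MACS score of any overlapping peak, and motif counts with the CPE-based Prediction. Per the submitters' processing notes, reads were aligned with Bowtie2 2.2.2 to mm10 and peaks called with MACS 1.4.2. The authors' RPKM divides the count by region length and by the whole library, and these deposited RPKM values were used only to recover library totals. The peak score was used as deposited, for presence and size. Columns of the authors' own WT and KO comparisons (p-values and log2 fold changes) were not used. Regions without a symbol held 0.902% to 1.04% of reads and were left out.

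Counts were scaled to the sum over rows with a symbol, 1 read was added, and log2 ratios were taken where the pair of libraries held at least 20 reads. A Zfp gene was counted as called past 2-fold. The 95% intervals are normal intervals from the counts. With 1 library per group edgeR's test could not be fitted, and no p-value compares the conditions. The chi-square test on reads, run as an alternative, compares single libraries. The ratio step was tested on simulated counts. The members, gene lists and tests were chosen with earlier results of these data known. Genes are named as the 5 highest and 5 lowest means over both genotypes or treatments with at least 50 reads in each pair, the 6 with most Input reads, the 4 with most Input reads of each role list, Cpeb4 and the silencing partners. Rankings by RIP over Input, other named genes and the LPS over untreated RIP ratio were added after the data were seen. Sequences, base content and proteins were computed from GRCm38.p6 and GENCODE M21 with pysam 0.24.0 and Biopython 1.88, and the CPE counts so found equal the deposited ones in all 30622 rows with a symbol. Ratios used Python 3.11, pandas 2.3.3 and numpy 2.4.6, and TMM factors edgeR 4.0.16. Alternatives were other scalings, read minima, added reads, the longest region, an interval rule and a chi-square test on reads.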

Additional observations from a re-analysis of the deposited data

How the results depend on the processing

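The 12 Zfp medians were each taken relative to the median of all genes. Library totals, TMM and the median of ratios shift every gene alike, so they cannot change these differences and do not test them. All 12 kept their direction with 5 reads added, with no read minimum and with the longest region. With at least 50 reads 4 of the 12 turned. There the untreated Input-corrected difference of -0.14 became 0.0063 over 33 genes and that with LPS went from -0.08 to 0.09 over 34. WT over KO RIP with LPS went from -0.18 to 0.03 over 47 genes, and WT over KO Input with LPS from 0.08 to -0.0051 over 45. The cause was not tested. Counts past 2-fold moved more. Scaling to library totals gave 21 and 45 Zfp genes for WT over KO RIP without and with LPS, all higher in WT, in place of 12 and 20. With LPS the Input-corrected count went from 27 to 44, of which 41 were higher. Apart from the chi-square test, shares of all genes past 2-fold are not given for the alternatives. These alternative counts are therefore no result about Zfp genes. With at least 50 reads all 12 counts fell by over 1.5 times, to 0 to 26, and with no minimum 10 rose by over 1.5 times, to 11 to 53. The genes tested changed too, from 63 to 101 per comparison to 33 to 58 with at least 50 reads and 116 with no minimum. These counts therefore do not give the change in share. The chi-square test on reads (at least 10 reads in the pair, Benjamini-Yekutieli adjusted p under 0.02 and log2 ratio past 0.5), which compares libraries and not conditions, called 3 of 97 Zfp genes without LPS, 2 higher in WT (Zfp367 and Zfp706) and 1 lower (Zfp120), where 5.27% and 5.92% of all genes were. With LPS it called 12 of 105, with Zfp422 and Zfp706 higher and 10 lower, where 9.63% and 11.9% were. With TMM the untreated WT over KO RIP split was 4 higher and 7 lower, and with the median of ratios 4 and 8. Adding 5 reads left 2 higher and 14 lower for the KO LPS change of Input. TMM and the median of ratios moved the median of all genes by up to 0.17 and 0.20, which leaves the difference between Zfp genes and all genes as it was. No paired analysis was possible because each group has 1 column, in which both lanes are summed, and no replicate could be left out for the same reason. Depth also limits the values, and the median Zfp gene had 9 reads in the untreated KO RIP.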

Other observations

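The LPS change could also be read in the RIPs, a comparison added after the data were seen. The median log2 ratio of LPS over untreated RIP was -0.41 over 95 Zfp genes in WT and -0.41 over 66 in KO, against -0.19 over 7110 and -0.14 over 5563 for all genes. Past 2-fold lower were 15 in WT, where 18.7% of all genes were, and 14 in KO, where 19.5% were, and past 2-fold higher were 6 and 3, against 12.3% and 14.8%. Zfp131, a BTB and zinc finger protein, had 16 and 129 reads in the WT RIPs, without and with LPS, and 5 and 31 in the KO RIPs, on 2 and 24 reads in WT Input and 6 and 12 in KO Input. Zfp800 had 29 and 98 reads in the WT RIPs and 6 and 22 in the KO RIPs, with 0 and 5 in WT Input and 4 and 12 in KO Input. Its region had 27.3% G and C, the lowest of any member, and 11 canonical CPEs.

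Zfp703 and Zfp503, the NET family pair without a C2H2 match, differed in level. Zfp703 had 135 and 155 reads in the WT Inputs and 231 and 109 in KO, with LPS over untreated ratios of -0.83 (-1.16 to -0.50) and -1.26 (-1.58 to -0.93). Zfp503 had 2 and 15 reads in the WT Inputs and 5 and 19 in KO.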
